A study of Mus musculus with 10 samples.

Results

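The main axis of variance among 10 liver transcriptomes of fat-fed mice ran across genotype rather than along it. The first principal component of log2 CPM (CPM, counts scaled to library size) held 34.2% of the variance. It put wild type replicates 3, 4 and 5 with knockout replicates 1 and 4, called set A here, opposite wild type replicates 1 and 2 with knockout replicates 2, 3 and 5, called set B. All 10 samples of the series belong to one of the sets, 5 to each. The sets were chosen from these same counts, so differences between them in the levels of genes are given as a description, with no p-value. Only 3 measures other than the levels of genes were tested, with that limit. They are not groups of the study, and the labels give no batch, date, cage or order of processing that would name them.

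All samples were liver RNA of C57BL/6 mice fed a high-fat diet (HFD) for 8 weeks, 5 wild type and 5 with the genotype Cpt1a L-/-, a liver knockout of Cpt1a. Cpt1a encodes the outer-membrane enzyme through which long-chain fatty acids enter mitochondria to be oxidised. The labels give neither the Cre driver, the age nor the sex of the mice, nor whether each sample was 1 animal, so p-values given for genotype measure the spread between these samples. Total counts ran from 20599078 to 26955922, at which 3 counts amount to between 0.106 and 0.169 CPM, counting error only. Albumin took 6.12% to 8.04% of counts in set A and 4.89% to 6.18% in set B, so the libraries were dominated by liver transcripts in both sets.

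The liver lobule is ordered from portal to central veins, and hepatocytes near each end express different enzymes, those of urea synthesis and gluconeogenesis at the periportal end and those of glutamine synthesis and drug oxidation at the pericentral end. Between hepatocytes lie endothelial, Kupffer and stellate cells. Apart from such biology, the count of a transcript depends on its length and base composition to a degree that can differ between libraries. The levels described here were therefore read with gene length and GC content beside them, and again after an offset that removes a smooth trend with both from each sample.

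Within wild type, component 1 separated replicates 1 and 2 (scores -38.4 and -41.8) from replicates 3, 4 and 5 (25.1, 31.1 and 28.0). Within the knockout it separated replicates 2, 3 and 5 (-22.4, -7.65 and -15.4) from replicates 1 and 4 (18.4 and 23.1). Knockout replicate 3 thus lay nearest to set A, and knockout replicate 1 was the member of set A nearest to set B. Component 2 (16.9% of the variance) spread the members of set B, from -34.3 and -27.2 in knockout replicates 5 and 3 to 24.3 and 24.9 in wild type replicate 2 and knockout replicate 2. Set B was therefore the less uniform of the sets. Across 13619 genes the fold between the sets in wild type correlated with that in the knockout with Pearson's r = 0.54 (genes are not independent, and the sets were chosen from these values).

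**Figure D1:**
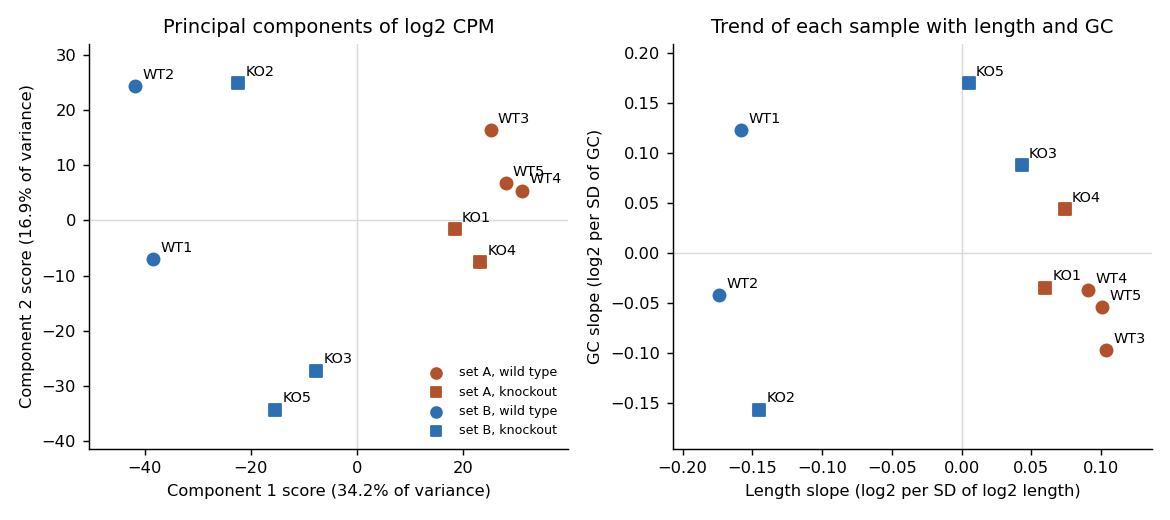
Left, scores of each sample on the first components of log2 CPM. Right, slope of each sample's gene-centred log2 CPM on log2 gene length and on GC content, per SD of each, fitted together. WT is wild type and KO knockout. Orange is set A and blue set B. The 5 samples of set A have length slopes between 0.06 and 0.10, while those of set B run from -0.17 to 0.04.

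A gene was called set apart where it differed at least 1.5-fold in a fit with genotype as covariate and no CPM value of one set overlapped the other. By this rule 386 of 13619 genes (2.83%) were higher in set A and 595 (4.37%) higher in set B. These shares are the background for every list below and were made by the choice of the sets. Without any limit on fold, 987 and 1325 genes did not overlap, and with a 2-fold limit 77 and 123 did. Without knockout replicate 2 the count higher in set A was 711, and leaving out any other single sample gave 383 to 530. With fewer samples the no-overlap part of the rule is easier to meet.

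Length set the members of these groups well apart. Genes higher in set A had a median length of 5347 bases and those higher in set B of 1478 bases, against 3190 over all genes tested. Their median GC contents were 47.1% and 53.1%, against 49.4%. The median log2 fold of set A over set B went from -0.51 in genes under 500 bases and -0.54 from 500 to 750, through -0.16 from 1500 to 2000, to 0.30 from 6000 upwards. The trend with GC was smaller, from 0.21 in genes under 40% GC to -0.16 from 60% upwards. Across 13595 genes with both values the log2 fold had Pearson's r = 0.43 and Spearman's rho = 0.47 with log2 length, and r = -0.21 and rho = -0.23 with GC content, again across genes and as a description.

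Within a band of length the GC trend was still there. Among genes of 1000 to 2000 bases the median log2 fold went from -0.02 below 44% GC to -0.30 from 56% upwards. Within a band of GC the length trend was larger. Between 48% and 52% GC it went from -0.47 below 1000 bases to 0.19 from 4000 upwards.

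**Figure D2:**
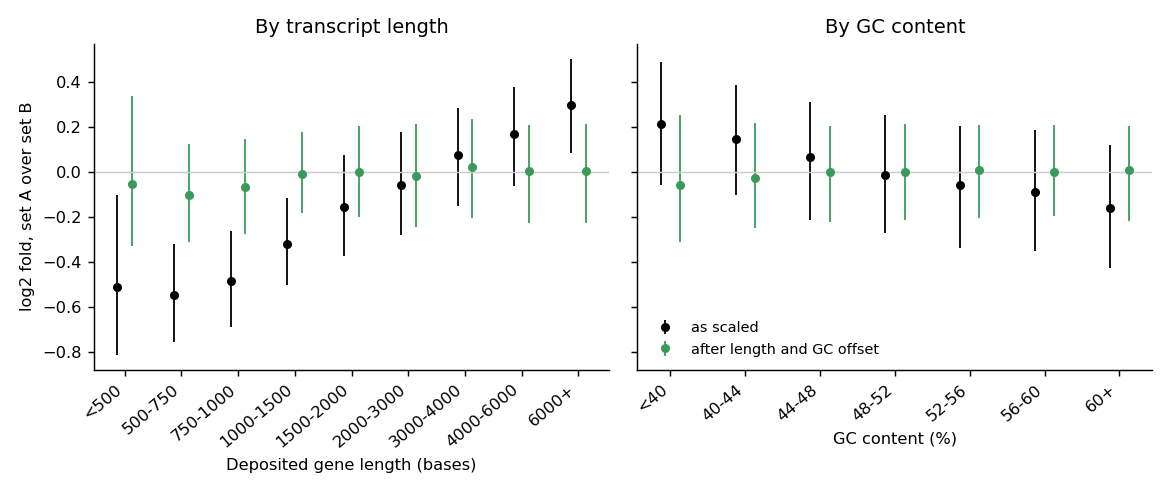
Median log2 fold of set A over set B, with bars from the lower to the upper quartile of the genes, by gene length (left) and GC content (right). Black is as scaled, green after the offset. The black medians climb from -0.51 to 0.30 with length, and the green medians stay between -0.10 and 0.02.

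A smooth of the log2 fold on GC alone held 4.76% of its variance over genes, one on length alone 19.4%, and one on both 21.1%. The SD of the log2 fold went from 0.45 to 0.40 with the offset for both. After the offset 236 genes (1.73%) were set apart higher in A and 384 (2.82%) higher in B. Of the genes set apart before it, 170 of 386 (44%) and 243 of 595 (40.8%) still were. Component 1 then held 31.1% of the variance and placed each sample on the same side, set A between 15.8 and 29.6 and set B between -38.2 and -10.2. The r between wild type and knockout folds was 0.49 after the offset.

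Set B did not share one length trend. The slope on length, in log2 units per SD of log2 length, was most negative in wild type replicate 1 (-0.16), wild type replicate 2 (-0.17) and knockout replicate 2 (-0.15). It was 0.04 and 0.01 in knockout replicates 3 and 5, near the 0.06 of knockout replicate 1 in set A. On GC content the slope was 0.12, 0.09 and 0.17 in wild type replicate 1 and knockout replicates 3 and 5, and -0.04 and -0.16 in wild type replicate 2 and knockout replicate 2. Counts of genes under 1000 bases took 10.7% to 15.8% of a library in set A and 13.3% to 23.8% in set B. The share was highest in wild type replicate 2, knockout replicate 2 and wild type replicate 1, at 23.8%, 22.8% and 20.2%. Their summed major urinary protein (Mup) genes, among them Mup2 of 927 bases, were also the highest, at 168415, 133904 and 129676 CPM. How much of the share the Mup genes made up was not computed, so it is not read here as one of short genes at large.

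Composition can be compared in the coding sequences of Lmbrd2 and Enho. Over the whole transcript Lmbrd2 had the lowest GC content (39.4%) among the 15 genes with the largest fold towards set A. Enho had the highest (65.6%) among the 15 towards set B. Enho encodes the secreted peptide adropin and lies on chromosome 4 at 41638144 to 41640324 of GRCm38, on the minus strand. Lmbrd2 lies on chromosome 15 at 9140550 to 9202483, on the plus strand. The whole coding sequence of Enho has 231 bases with 61.0% GC. The first 231 of 1950 coding bases of Lmbrd2 have 45.5% GC, and all 1950 have 41.8%. Both stretches are given from GENCODE M21 with G and C in capitals.
Enho: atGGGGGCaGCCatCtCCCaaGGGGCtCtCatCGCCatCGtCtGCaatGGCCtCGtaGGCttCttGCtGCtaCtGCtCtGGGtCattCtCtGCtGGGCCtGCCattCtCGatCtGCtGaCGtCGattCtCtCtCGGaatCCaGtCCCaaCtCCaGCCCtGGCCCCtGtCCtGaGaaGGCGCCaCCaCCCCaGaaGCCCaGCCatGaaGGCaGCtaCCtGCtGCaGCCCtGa
Lmbrd2: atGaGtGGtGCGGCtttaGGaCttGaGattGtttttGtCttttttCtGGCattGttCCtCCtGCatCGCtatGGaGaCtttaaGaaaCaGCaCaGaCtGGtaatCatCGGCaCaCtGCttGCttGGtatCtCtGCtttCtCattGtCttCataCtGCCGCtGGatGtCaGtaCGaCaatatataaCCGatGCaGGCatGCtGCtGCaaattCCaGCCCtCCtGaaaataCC

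Enho was at 18.0, 4.79, 13.2, 12.7 and 8.69 CPM in set A and at 25.9, 32.0, 23.3, 34.8 and 28.2 CPM in set B, in the order wild type 3, 4 and 5 and knockout 1 and 4, then wild type 1 and 2 and knockout 2, 3 and 5. That order is kept for all values by sample that follow. Every sample of set B lay above every sample of set A. The log2 fold was -1.35, and -0.96 after the offset, where it no longer counted as set apart. Lmbrd2 was at 19.9, 11.1, 10.7, 10.0 and 10.2 CPM against 2.53, 1.63, 4.29, 8.33 and 6.66 CPM, a log2 fold of 1.57, and 1.26 after the offset.

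Cytosolic ribosomal protein genes leaned towards set B, while translation factors (62 genes, 4 set apart in A and 3 in B, median log2 fold -0.07) did not. Of 82 cytosolic ribosomal protein genes, 53 were set apart higher in B (64.6%, against 4.37% of all genes) and 0 in A, with a median log2 fold of -0.70 (0.02 over all genes). Together they took 1.06% to 1.12% of counts in every sample of set A and 1.52% to 1.83% in set B, so these shares did not overlap. Rpl13a was at 256.2, 216.5, 232.6, 259.6 and 226.5 CPM in set A and at 484.0, 740.0, 418.8, 357.3 and 399.3 CPM in set B. Wild type replicate 2 was the highest and knockout replicate 3 the lowest of set B. Rps13 was similar, at 14.96 to 23.0 CPM against 27.8 to 59.7 CPM (log2 fold -1.12, and -1.12 after the offset). The offset used the deposited length, 2363 bases for Rps13. In wild type replicate 1 Rps13 was at 48.3 CPM and 125.2 TPM (TPM, counts scaled to transcript length and library). Oat (2152 bases) was at 719.0 CPM and 316.7 TPM there. The TPM thus implied a transcript of Rps13 shorter than the deposited length, for which the offset can fall short. Rpl41 had a log2 fold of -1.02, and -0.55 after the offset. Of the 82 genes 81 had a negative fold, the exception being Rpl27 at 0.37. These are short genes, with a median length of 1045 bases, and many have near-identical processed copies in the genome among which reads can be split. After the offset 16 of the 82 were set apart and the median was -0.36. Across these genes the fold after the offset had r = -0.58 with log2 length, against 0.08 before it. The list's mean level still did not overlap between the sets.

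The nuclear-encoded subunits and assembly factors of oxidative phosphorylation, which build the respiratory complexes of mitochondria, did likewise. Of 87 genes 26 were set apart higher in B and 0 in A, with a median log2 fold of -0.51 and a median length of 1194 bases. Atp5e, a small subunit of ATP synthase, was at 49.7, 56.5, 50.8, 53.7 and 52.5 CPM against 123.7, 149.3, 89.3, 61.6 and 76.9 CPM. The set A values lay within a narrow band and each set B value lay above it. Ndufc1, a small subunit of complex I, had a log2 fold of -0.84. The 5 positive members were Sdha at 0.40, Ndufs1 at 0.37, Atp5a1 at 0.13, Atp5b at 0.07 and Uqcrc2 at 0.05, which encode large catalytic or core subunits. Sdha, 2900 bases long, was at 486.5 to 522.4 CPM in set A and 357.0 to 405.4 CPM in set B. After the offset 7 of 87 were set apart and the median was -0.15. Across these genes the fold after the offset had r = -0.43 with log2 length, against 0.28 before it.

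Among 77 mitochondrial ribosomal protein genes 15 were set apart higher in B (median log2 fold -0.41, and -0.21 with 9 set apart after the offset). Their fold after the offset had r = -0.63 with log2 length, against 0.33 before it. Proteasome genes had 6 of 47 higher in B (median -0.28, and -0.10 with 1 after the offset), among them Psmb3 at -0.83. The small nuclear and signal recognition RNAs were furthest towards B, with 4 of 5 set apart and a median log2 fold of -1.81, and 2 set apart with a median of -1.29 after the offset. Rn7s1, a 7SL RNA gene of 300 bases, was at 3.91, 3.18, 3.64, 3.73 and 3.07 CPM against 13.3, 6.41, 15.3, 13.5 and 16.7 CPM. Rn7s2 held the same values and the same sequence over all 300 bases, so they are one measurement. Counted once, 3 of 4 genes were set apart, and 1 after the offset. Rn7sk, which restrains transcription elongation, had a log2 fold of -1.92, and Rpph1, the RNA of ribonuclease P, of -2.001, neither set apart after the offset.

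At the other end stood long genes of chromatin and transcription. Of 55 such genes, with a median length of 9085 bases, 10 were set apart higher in A (18.2%, against 2.83% of all genes) and 0 in B, with a median log2 fold of 0.41. Ep300, an acetyltransferase and coactivator, was at 26.6, 25.6, 27.5, 26.5 and 23.6 CPM in set A and at 10.5, 10.0, 11.9, 20.9 and 18.2 CPM in set B. Its values in wild type replicates 1 and 2 and knockout replicate 2 were about the same, and those of knockout replicates 3 and 5 lay between these and set A. Ncor1, a corepressor, had a log2 fold of 0.65. The members with the longest transcripts were not the furthest apart. Kmt2a (16470 bases) was at 0.13 and Kmt2c (14967 bases) at 0.41. After the offset 1 of 55 was set apart and the median was 0.17. Outside that list the cohesin loader Nipbl was at 1.40, the DNA damage kinase Atm at 1.27 and the nucleoporin Ranbp2 at 1.16.

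The same order by length appeared inside lists of one function. In each of 50 lists with at least 10 genes the log2 fold correlated positively with log2 length, with r from 0.01 to 0.78 and a median of 0.41. The lists share some genes, and these are correlations across genes of the same libraries. Interferon-stimulated genes, which cells switch on against viruses, were one such list, with r = 0.59 before and 0.32 after the offset. Of 44 genes 4 were set apart higher in A, with a median length of 4830 bases, and 5 higher in B, with a median length of 977 bases. The long RNA sensor gene Ifih1 was at 37.4, 28.1, 26.96, 27.2 and 30.2 CPM against 10.0, 15.1, 19.3, 17.8 and 13.1 CPM, a log2 fold of 1.03. The short ubiquitin-like gene Isg15 was at 12.7, 12.3, 11.2, 15.6 and 14.0 CPM against 20.5, 22.2, 18.4, 33.8 and 29.0 CPM, a log2 fold of -0.85. The groups did not overlap for either gene, in opposite directions. The median of the whole list was -0.01. After the offset 2 genes were set apart higher in A and 0 in B.

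**Figure D3:**
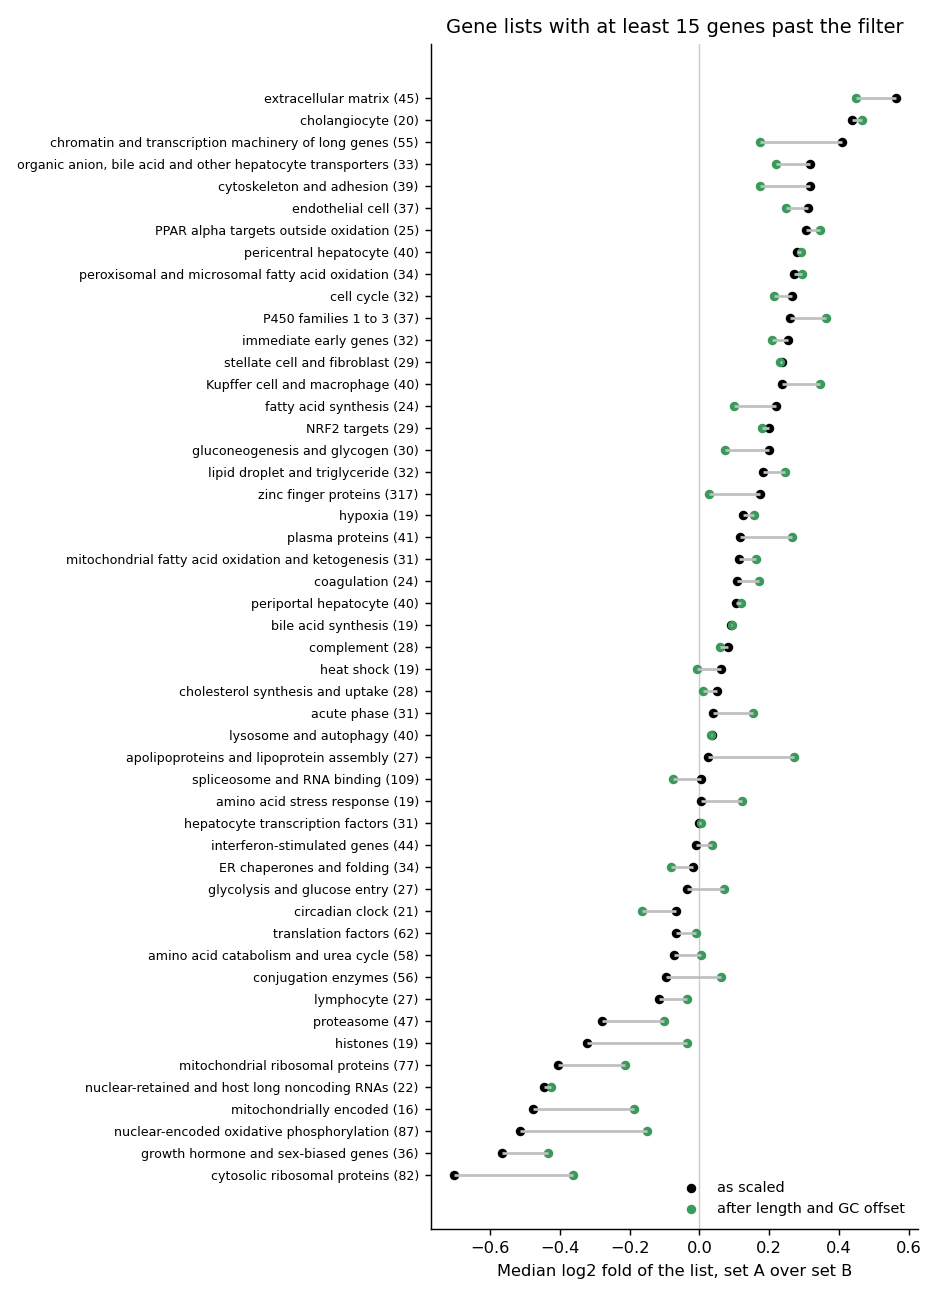
Median log2 fold of set A over set B for each list with at least 15 genes past the filter, number of genes in brackets. Black is as scaled and green after the offset. Cytosolic ribosomal proteins move from -0.70 to -0.36 and chromatin genes from 0.41 to 0.17, while extracellular matrix (0.56 to 0.45) and pericentral genes (0.28 to 0.29) change less.

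Extracellular matrix genes were the functional list furthest towards set A. Of 45 genes 44 had a positive log2 fold, 10 were set apart higher in A and 0 in B, and the median was 0.56, or 0.45 with 6 set apart after the offset. In bulk tissue fewer cells of a type and less RNA per cell cannot be told apart. The summed level of the 48 measured matrix genes was 2280 to 2740 CPM in set A and 1150 to 1700 CPM in set B. The basement membrane gene Col4a1, a collagen IV chain, was at 33.6, 59.4, 44.1, 32.8 and 46.9 CPM against 22.1, 18.3, 18.2, 26.7 and 24.3 CPM. Nid1, which links collagen IV to laminin, had a log2 fold of 0.91 and the laminin chain gene Lamb1 of 1.02. Hspg2, the perlecan gene, was at 0.88 with a length of 14187 bases and 60.9% GC. Fibronectin, Fn1, was at 1121 to 1505 CPM in set A and 547.9 to 898.0 CPM in set B (log2 fold 0.80, and 0.54 and no longer set apart after the offset). The 1 negative member was Col5a3, at -0.53. The mean level of the list overlapped between the sets, since knockout replicate 1 in set A was at -0.14 and wild type replicate 1 in set B at -0.01.

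Stellate cell and fibroblast markers had 3 of 29 genes set apart higher in A and 0 in B, with a median of 0.24, and 0.23 after the offset. In the list 20 genes were positive and 9 negative. Col1a1, the main fibrillar collagen chain, was at 11.6, 21.1, 17.4, 6.63 and 19.1 CPM against 5.95, 6.24, 3.38, 6.17 and 5.03 CPM. Knockout replicate 1 was close to the highest value of set B. Hgf, the hepatocyte growth factor made by stellate cells, had a log2 fold of 1.41, and Dcn, at 0.32 and -0.02 after the offset, was not set apart. The summed level of 30 measured markers was 633 to 904 CPM in set A and 537 to 687 CPM in set B, which overlapped.

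Endothelial markers had 7 of 37 genes set apart higher in A and 1 in B. The endocytic receptor Mrc1 was at 49.6, 44.8, 57.0, 50.3 and 48.4 CPM against 26.6, 26.6, 28.4, 23.8 and 24.2 CPM. Cdh5, the cadherin of endothelial junctions, had a log2 fold of 0.75 and Lyve1, the hyaluronan receptor of sinusoids, of 0.77, and all 3 were still set apart after the offset. Egfl7, 1865 bases long, was the member higher in B, at -0.59. Clec4g, a sinusoidal lectin, was at -0.35 and Nrp1 at 0.13, neither set apart. The median was 0.31, and 0.25 with 6 set apart in A after the offset. The endothelial list mean of wild type replicate 1, at 0.13, lay with set A. The median without wild type replicate 1 was 0.45. The summed level of 37 markers was 1090 to 1220 CPM in set A and 853 to 1130 CPM in set B.

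Kupffer cell and macrophage markers had a median of 0.24 with 2 of 40 genes set apart higher in A, and 0.35 with 5 after the offset, the mean level then not overlapping between sets. Adgre1, which encodes the macrophage antigen F4/80, was at 26.2, 25.6, 32.3, 25.9 and 33.1 CPM against 21.4, 14.0, 17.3, 19.2 and 23.1 CPM. Cd5l and C6, the most abundant of the list besides the iron exporter Slc40a1 (0.44), were at 0.05 and 0.02. In the list 30 genes were positive and 10 negative. Among the negative were C1qa (-0.47), C1qb (-0.34) and C1qc (-0.31), at -0.06, 0.05 and 0.05 after the offset. The 40 markers summed to 1580 to 1790 CPM in set A and 1370 to 1660 CPM in set B. Cholangiocyte markers had a median of 0.44 (20 genes, 1 set apart), and wild type replicate 4 had a list mean of 0.89, the rest of set A lying from -0.03 to 0.17. Spp1, osteopontin, was at 111.9 CPM in that sample and at 35.3 to 62.2 CPM in the rest of set A.

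Erythroid genes stood towards set B. All 8 were negative, with a median of -1.03, and 3 were set apart, the globin genes Hba-a1 (-1.46), Hbb-bt (-1.31) and Hbb-bs (-1.16). Hbb-bs was at 175.7, 163.8, 267.1, 155.5 and 223.9 CPM against 517.6, 551.9, 284.3, 428.9 and 355.9 CPM. The globin genes are near copies of each other, so their counts can be split among them, and they are short, with 628 to 703 bases for these 3. The 12 measured markers summed to 516 to 798 CPM in set A and 866 to 1630 CPM in set B, without overlap. After the offset the median was -0.65, 0 of 8 were set apart and the list means overlapped.

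Other cell type lists held few genes set apart. Lymphocyte markers had 1 of 27 genes set apart each way (median -0.12), Ptprc, the CD45 gene of 5740 bases, at 1.12 and Zap70 at -0.94. Neutrophil (9 genes) and adipocyte markers (6 genes) had 0 set apart. Of pancreatic and gut markers 4 passed the filter and 2 were set apart higher in B, among them Lgals4, a gut galectin, at -1.14. Mesothelial (3), nerve (2) and muscle markers (1) had too few genes for a median. Their summed levels lay between 0.929 and 10.0 CPM in all samples, and the muscle genes Mb and Pvalb, the nerve gene Th and the pancreatic gene Prss1 were at 0 in all of them. The part of cell composition in the division was not tested.

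**Figure D4:**
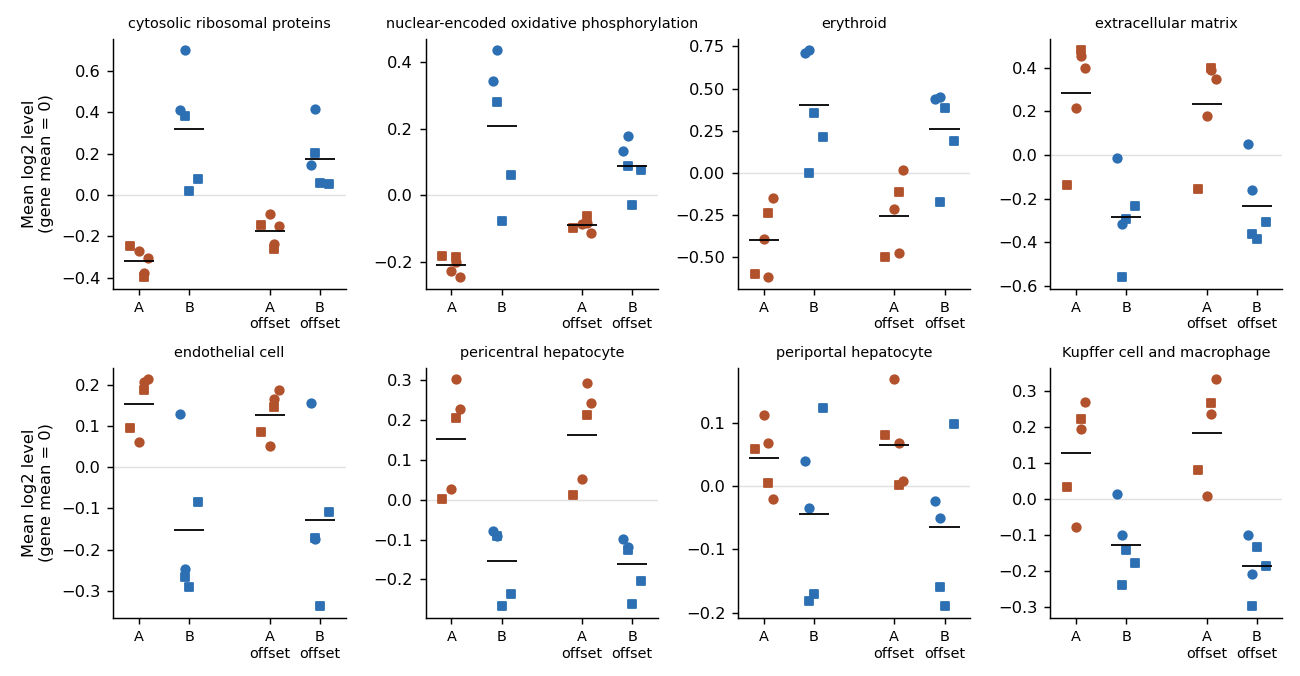
Mean log2 level of 8 gene lists in each sample, each gene centred on its mean over samples, as scaled (left pair in each panel) and after the offset (right pair). Orange is set A and blue set B, circles are wild type and squares knockout, and lines are set means. Ribosomal protein means are below 0 in all of set A and above 0 in all of set B, pericentral means are at or above 0 in A and below in B, and periportal means overlap.

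Pericentral hepatocyte genes were mostly higher in set A by a small amount. Of 40 genes 35 had a positive log2 fold, with a median of 0.28, and 0.29 after the offset, but only Cyp2a5, a coumarin-oxidising P450, was set apart (0.62). Cyp2a4 (2.16), Cyp3a11 (0.92), Slco1b2 (0.88) and Cyp4a14 (0.76) had larger folds, with overlap between the sets. Slco1b2 was set apart after the offset. The list mean ran from 0.00 in knockout replicate 1 to 0.30 in wild type replicate 4 in set A and from -0.27 to -0.08 in set B, without overlap before or after the offset. Glul, glutamine synthetase of the last rim of cells around the central vein, was at 1195, 1370, 1251, 1168 and 1408 CPM against 1087, 1057, 698.4, 876.7 and 851.9 CPM. Every value of set A lay above set B, and the log2 fold of 0.46 was under the 1.5-fold limit. Oat (0.49), Slc1a2 (0.51), Cyp1a2 (0.42), Rhbg (0.57), Axin2 (0.39), Lgr5 (0.31) and Cyp2e1 (0.28) were all positive and none was set apart. Slc1a2, the glutamate transporter with a length of 11595 bases, was at 0.19 after the offset, while Cyp1a2 was at 0.56 and Oat at 0.54.

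Periportal genes showed no common lean. Of 40 genes 26 were positive, with a median of 0.10 before and 0.12 after the offset, and the list means overlapped. Pigr, the receptor that carries immunoglobulin A into bile, was set apart at 0.83, with 1183 to 1437 CPM in set A and 617.5 to 830.5 CPM in set B. Defining genes went both ways. Cyp2f2 was at 0.36, the urea cycle gene Cps1 at 0.32, Hsd17b13 at 0.45, Pck1 of gluconeogenesis at 0.04 and the histidine ammonia-lyase gene Hal at 0.03. Ass1 was at -0.11, Gls2 at -0.20 and Sds, which degrades serine, at -0.64. The difference between the pericentral and the periportal median was not tested. Midlobular genes (9) had a median of 0.05.

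Hepatocyte functions outside the zones showed few genes set apart. Transcription factors that define hepatocytes had 0 of 31 in either direction and a median of 0.00. Onecut1 had the largest fold of that list, at 2.41 and 2.32 after the offset, but its values overlapped between the sets. Cytochrome P450 genes of families 1 to 3 had 2 of 37 in A (median 0.26, and 0.36 after the offset). Cyp2a4 (2.16), Cyp2b13 (1.93), Cyp2b9 (1.59) and Cyp2a22 (1.19) lay far above that median, with overlap between the sets. In the list 28 genes were positive and 9 negative. Transporters of organic anions and bile acids had 2 of 33 set apart in A, but 29 of 33 were positive, the median was 0.32 (0.22 after the offset), and the list means did not overlap between sets before or after it, as for the pericentral list. PPAR alpha targets, which answer to a nuclear receptor for fatty acids, had 0 of 25 (0.30, and 0.34 after the offset). Fatty acid synthesis had 1 of 24 (0.22), cholesterol synthesis 0 of 28 (0.05), glycolysis 0 of 27 (-0.04), and amino acid catabolism with the urea cycle 2 of 58 (-0.07). Plasma proteins had 4 of 41 higher in A and apolipoproteins 2 higher in A and 1 in B of 27. Among the latter Abca1, the cholesterol exporter of 10262 bases, was at 0.96, and Apoc4, an apolipoprotein gene of 2096 bases, was at -1.13. Apoc4 was at 428.9, 486.7, 444.0, 486.8 and 457.8 CPM against 1093, 1404, 952.8, 653.7 and 848.4 CPM, and still set apart after the offset (-1.05). In wild type replicate 1 its 1093 CPM stood beside 3444 TPM, so the limit given for Rps13 holds for Apoc4 too.

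The growth hormone and sex-biased list, in which the major urinary protein (Mup) genes of liver predominate, had a median of -0.57 and 0 of 36 genes set apart. It did not move as one, with 25 genes negative and 11 positive. The P450 genes Cyp2a4, Cyp2b13 and Cyp2b9, given above, went opposite to the Mup genes. Cyp2b9 was at 58.5, 267.5, 240.2, 45.7 and 112.8 CPM against 65.2, 44.3, 66.0, 9.85 and 15.5 CPM. All 19 Mup genes past the filter were negative, from -1.79 to -0.25 with a median of -1.06, and -0.72 after the offset. Summed, they were at 105935, 28740, 39351, 71481 and 51346 CPM in set A and at 129676, 168415, 133904, 55418 and 49237 CPM in set B. Wild type replicate 3 of set A was thus above knockout replicates 3 and 5 of set B, and the ranges overlapped. The Mup genes are near copies of each other, so only their sum is firm. The list median was -1.11 within wild type and -0.16 within the knockout.

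Single genes with the largest folds differed in which samples carried them. Eno1b, a copy of the enolase gene Eno1, had a log2 fold of 3.01, with 48.2, 40.8, 36.3, 33.2 and 35.6 CPM in set A and 0.0888, 0, 1.10, 27.7 and 24.2 CPM in set B. Wild type replicates 1 and 2 and knockout replicate 2 held next to none, while knockout replicates 3 and 5 were close to set A. Eno1 itself was at 275.6 to 430.2 CPM in all samples (-0.04), and reads can be split between such copies. Hipk2, a nuclear kinase gene, was at 33.7, 34.5, 30.6, 25.6 and 29.1 CPM against 7.11, 5.91, 6.07, 22.6 and 20.9 CPM, and the same 3 samples were lowest. Vcl, vinculin of cell adhesions, had the same order, with 29.0 to 41.3 CPM in set A and 9.22 to 21.03 CPM in set B. Klf9, a transcription factor gene, was at 1.16 and the kinase gene Sik2 at 1.27. Map2k7, which activates the kinase JNK, was at 6.54, 4.29, 6.36, 10.98 and 6.03 CPM against 15.1, 14.2, 16.2, 21.3 and 18.9 CPM (-1.25), the highest values falling in knockout replicates 3 and 5. Adamts10 (-1.14) and Klhdc8b (-1.15) were higher in B although both exceed 4000 bases.

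Near copies of a gene differed in fold. The complement gene C4a had a log2 fold of -1.52 and C4b of 0.43, on opposite sides. The murinoglobulin genes Mug2 and Mug1, plasma protease inhibitors, were at 1.43 and 0.73, both set apart higher in A. C4a was at 27.3, 15.1, 9.44, 16.3 and 12.2 CPM against 46.1, 51.6, 32.2, 30.9 and 61.0 CPM, while C4b was at 1071 to 1520 CPM against 680.3 to 1083 CPM. Their annotated transcripts are 96.2% identical over 5366 aligned bases, with identical runs of up to 433 bases, and those of Mug1 and Mug2 are 95.2% identical over 4571 bases. Reads from the identical stretches can be assigned to either copy, so the values of C4a, the far less abundant one, are uncertain. To show where reads can tell the copies apart, the 60 bases with the most differences are given, 13 in each pair. They come from the GENCODE M21 transcripts, within the coding parts of C4b and Mug1, with differing bases in capitals. C4a is annotated as a processed transcript, not as protein-coding. C4a and C4b lie on chromosome 17, minus strand, and Mug1 and Mug2 on chromosome 6, plus strand.
C4b: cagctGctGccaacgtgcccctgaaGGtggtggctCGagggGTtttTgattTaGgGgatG
C4a: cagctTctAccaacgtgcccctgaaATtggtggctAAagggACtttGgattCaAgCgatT
Mug1: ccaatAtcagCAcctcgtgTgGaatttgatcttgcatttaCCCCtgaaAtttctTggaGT
Mug2: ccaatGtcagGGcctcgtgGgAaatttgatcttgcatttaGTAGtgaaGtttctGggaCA

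Mitochondrially encoded transcripts did not move as one. They took 5.54% to 6.66% of counts in set A and 5.30% to 9.33% in set B, and of 16 measured genes 7 had a positive and 9 a negative log2 fold. The complex I gene mt-Nd3 (348 bases) was at 205.3, 178.9, 178.6, 195.3 and 224.6 CPM against 428.9, 1035, 563.4, 361.5 and 345.5 CPM, and mt-Rnr1, the small ribosomal RNA, was also set apart higher in B (-1.08). At the other end mt-Nd5 (1824 bases) was at 3721, 3173, 2997, 2800 and 2363 CPM against 1084, 1103, 2709, 831.8 and 791.6 CPM, a log2 fold of 1.21. The overlap came from knockout replicate 2, which was well above the rest of set B. These folds did not follow length alone, since mt-Co1 (1545 bases) was at -0.57 and mt-Atp8 (204 bases) at 0.56. Knockout replicate 2 carried the highest mt-Nd4 level, 10870 CPM, and knockout replicates 3 and 5 the lowest, 2105 and 1942 CPM, so set B held both extremes. The median GC content of the list was low, at 36.55%. Its mean level was 0.76, -0.41 and -0.55 in knockout replicates 2, 3 and 5. After the offset these means were -0.04, -0.09 and 0.06. Then mt-Nd5, mt-Atp8 and mt-Nd6 were set apart higher in A and mt-Rnr2 higher in B, while mt-Nd3 and mt-Rnr1 no longer were.

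**Figure D5:**
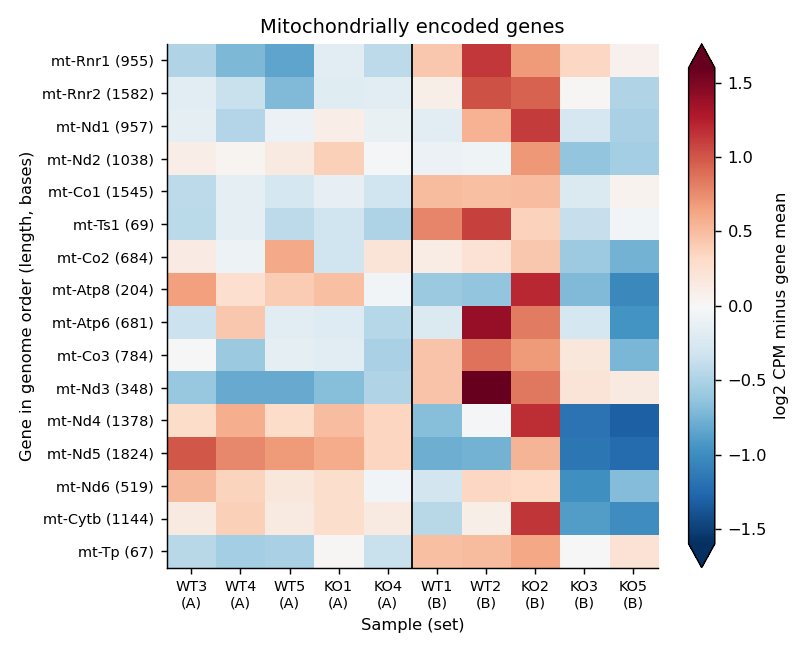
Log2 CPM of each mitochondrially encoded gene minus its mean over the samples, genes in genome order with their length in bases, samples by set (WT wild type, KO knockout). Red is above and blue below the gene's mean, and colours end at 1.6. Levels are as scaled, before the offset. Set A is the more uniform, with mt-Nd5 high and mt-Nd3 low, while in set B knockout replicate 2 and knockout replicates 3 and 5 go opposite ways.

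Noncoding transcripts leaned towards set B before and after the offset. Genes annotated as antisense had a median log2 fold of -0.48 with 30 of 223 set apart higher in B, processed transcripts of -0.42 with 18 of 151, and lincRNAs of -0.34 with 16 of 241. After the offset these medians were -0.31, -0.38 and -0.22, while that of protein-coding genes was 0.00. Antisense genes took 0.0947% to 0.103% of counts in set A and 0.113% to 0.130% in set B, without overlap. The handling of strand in library and counting is not given in the sources used here, so reads of an antisense gene and its partner cannot be told apart. The nuclear Neat1 (20771 bases), which scaffolds paraspeckles, was at 70.7, 78.8, 77.2, 56.6 and 50.9 CPM against 86.0, 88.6, 118.5, 191.5 and 76.2 CPM (-0.73). Neat1 was at -0.21 within wild type and -1.16 within the knockout. Malat1, another nuclear RNA, was at -0.14, with 0.55 within wild type and -0.86 within the knockout. Knockout replicate 3 held the highest Neat1 level and the largest antisense share.

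Measures other than the levels of genes were compared with exact two-sided permutation tests over all ways of drawing 5 and 5 samples. The smallest p this permutation test can give is 0.0079. All 3 measures were made from the count columns on which the sets were chosen, so their p-values are not independent of that choice. They therefore decide nothing about the sets. Total count was 23990970 to 26955922 in set A and 20599078 to 24604268 in set B (p = 0.063, exact permutation, adjusted p = 0.19 over 3 measures). The share of expected counts that were not whole, which come from reads shared between transcripts, was 7.78% ± 0.22 against 7.59% ± 0.54 (SD, n = 5 each, exact permutation p = 0.53, adjusted p = 0.53). The log2 ratio of implied effective length, count over TPM, of 313 short to 2926 long genes was -3.69 ± 0.02 against -3.70 ± 0.03 (SD, n = 5 each, exact permutation p = 0.36, adjusted p = 0.53). None of the 3 passed, and a p that misses the threshold does not show that the sets were alike in them.

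Genotype was tested with and without the sets in the fit. Cpt1a was at 490.8, 503.7, 480.7, 355.4 and 319.7 CPM in wild type replicates 3, 4, 5, 1 and 2, and at 77.0, 93.9, 74.7, 70.5 and 84.0 CPM in knockout replicates 1, 4, 2, 3 and 5. All samples matched their labels, and within wild type the set A samples were higher. The log2 fold change of knockout over wild type was -2.43 ± 0.16 (SE, edgeR adjusted p = 1.9e-05) alone and -2.33 ± 0.11 (edgeR adjusted p = 3e-07) with the set as a term. Of 13619 genes 18 (0.132%) changed with genotype alone, and 36 (0.264%) with the set as a term, 21 higher and 15 lower in the knockout, by edgeR's quasi-likelihood test at an adjusted p under 0.05. They shared 17 genes. The set was chosen from the same counts, which the p-values of the second fit do not take into account. The common biological coefficient of variation was 0.233 alone and 0.184 with the set term. The sets follow the main axis of variance in these counts, so a fall with the term was built into their choice.

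Of all genes 2.83% were set apart higher in A and 4.37% higher in B. Both sets hold both genotypes, so a gene that differs by genotype meets the no-overlap rule less easily. A count of 0 among few such genes is therefore no result about them. It was 0 of the 19 genes called with the set term only. Among these, chosen after their values were seen, Khk, the first enzyme of fructose use, was at a log2 fold change of -0.69 ± 0.12 (edgeR adjusted p = 0.028), against an adjusted p = 0.45 without the term. Its wild type values were 283.0, 363.0 and 252.4 CPM in set A and 461.7 and 464.0 CPM in set B, and its knockout values 212.0 and 205.7 CPM in A and 261.1, 229.5 and 275.3 CPM in B. Within each set the genotypes did not overlap, while over all samples they did. Ehhadh of peroxisomal oxidation rose (0.98 ± 0.16, edgeR adjusted p = 0.030, against 0.17), as did the glycogen synthase gene Gys2 (0.49 ± 0.08, edgeR adjusted p = 0.031, against 0.59). Thrsp, a lipogenic gene, fell (-1.64 ± 0.21, edgeR adjusted p = 0.0095, against 0.067), and the glycogen phosphorylase gene Pygl fell (-0.50 ± 0.09, edgeR adjusted p = 0.043, against 0.33). Cntnap1 was called alone (2.23 ± 0.38, edgeR adjusted p = 0.048) and not with the term (edgeR adjusted p = 0.081).

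The count with genotype alone, 18 with all samples, changed when single samples were left out. It was 9 without wild type replicate 2, 8 without knockout replicate 2, and 6 without wild type replicate 3 or knockout replicate 3 or 5. Without any other single sample it was 12 to 21. Fewer samples also lower the power of the test, so a fall does not show that calls rested on that sample. Whether a genotype effect differed between the sets was tested as an interaction. By edgeR 0 of 13619 genes (0%) passed, with 1291 at an unadjusted p under 0.05, DESeq2 called 37, and edgeR without knockout replicate 2 called 32. With 2 or 3 samples in each combination of genotype and set, the interaction calls depended on the method.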

How the data were processed

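Liver RNA-seq was given as a single table covering 51911 genes. For each sample the authors deposited expected counts and TPM, beside a length per gene. Per the submitters' processing notes, which name fastp, HISAT, RSEM and GRCm38.p5 without role or order, the authors made the deposited expected count and TPM values from reads; the notes give no version or strand setting. The authors' deposited mean TPM, log2 fold change and p-value columns were not used. Expected counts (7.68% not whole) were rounded, 5 rows without a gene were left out, and 26 of 27 symbols that a spreadsheet had turned into dates were restored. Columns named CON were read as the wild type samples of the same number.

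Genes were filtered with filterByExpr by genotype (13619 left), scaled with TMM and fitted with edgeR 4.0.16 (R 4.3.3, quasi-likelihood, robust) on genotype and set. A gene was set apart at 1.5-fold or more with no overlap of CPM. The mean level of a list is that of log2 CPM (prior count 2). GC content came from the GENCODE M21 transcript nearest to the deposited length (GRCm38). The offset subtracts from each sample a spline in GC and log2 length, and expression trends that follow length are removed with it. It uses the deposited length, so it can fall short for a gene expressed as a shorter transcript. Deposited TPM served for the implied effective length (genes of 350 to 750 against 4000 or more bases, TPM of at least 1 in every sample). Tests on genotype used Benjamini-Hochberg adjustment over all genes. Fits were checked on simulated counts.

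Members and the 59 gene lists were chosen with earlier results of these data known. Named are Cpt1a, the 15 largest folds each way among set-apart genes (mean log2 CPM of at least 2, no predicted genes), up to 4 from lists with at least 25% of members set apart in one direction, 16 zonation genes and the 3 most abundant of each marker list, of which only those that bear on a result are printed. Other genes were added after their values were seen. DESeq2 1.42.0 and limma 3.58.1 were alternatives. Replicate numbers did not pair the samples.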

Additional observations from a re-analysis of the deposited data

Results flagged for a closer look

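In 9 of 236 groups of 5 values examined, 1 sample stood far from the other 4 of its set by Dixon's test, which picks out about 1 group in 20 by chance. In set A these were Lmbrd2 in wild type replicate 3 (19.9 CPM), Mug2 in knockout replicate 4 (351 CPM) and Sds in wild type replicate 3 (138 CPM). In set B they were mt-Nd5 (2709 CPM) and Lgals4 (32.4 CPM) in knockout replicate 2, Lamb1 in wild type replicate 1 (2.44 CPM), Pck1 in knockout replicate 5 (2044 CPM) and Adamts10 in knockout replicate 3 (11.7 CPM). The total count of wild type replicate 2 (20599078) was the lowest of set B by the same measure.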

How the results depend on the processing

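Of 393 recomputed summary values 334 kept their direction and stayed within the limits set for them. In 4 the sign turned. The correlation with GC content was 0.012 after the offset for GC and length and 0.0088 after that for GC alone, and the correlation of the fold with log2 length was -0.0029 after an offset for length alone (0.0011 after that for GC and length, 0.15 with no filter), as these offsets are built to give. The difference in implied effective length was -0.0024 with at least 100 counts in every sample.
With the GC and length offset 236 and 384 genes were set apart, component 1 held 31.1%, and the medians were -0.36 (cytosolic ribosomal), -0.15 (oxidative phosphorylation), -0.21 (mitochondrial ribosomal), 0.17 (chromatin) and -0.65 (erythroid). With length alone 180 were higher in A, component 1 held 29.3%, and these medians were -0.39, -0.15, -0.22, 0.12 and -0.69, with Kupffer markers at 0.38. With a 2-fold limit 77 and 123 genes were set apart, and 987 and 1325 with none.
Within wild type alone the mitochondrial ribosomal median was -0.55, chromatin 0.60 and the growth hormone list -1.11, against -0.16 within the knockout. Within the knockout alone the cytosolic ribosomal median was -0.48, oxidative phosphorylation -0.31, mitochondrial ribosomal -0.23 and chromatin 0.23. Component 1 held 24.6% with no filter, 38.4% with at least 10 counts in every sample, 38.8% with genotype means removed and 32.1% on the 1000 most variable genes. Without knockout replicates 3 and 5, a choice made after seeing the data, 854 and 1116 genes were set apart and the chromatin median was 0.60. Fewer samples make the no-overlap rule easier to meet, so these counts are not on a par with those from all samples. The cause of the other moves was not tested.
Genotype calls numbered 36 with the set term, 46 with the set term and offset (added after seeing the data), 93 by DESeq2 and 161 by DESeq2 with the set term. The interaction gave 293 calls with no filter and 37 by DESeq2.
Same-numbered samples deviated together with correlations from -0.41 to 0.43, so the numbers are not taken to pair them. With the replicate number as a block the medians were 0.25 (matrix), 0.18 (endothelial) and 0.077 (Kupffer), and the interaction gave 5 calls.
Leaving out 1 sample at a time gave 383 to 711 genes higher in A, 573 to 744 in B, a component 1 share of 32.9% to 37.4%, 6 to 21 genotype calls and 0 to 32 interaction calls. Medians then ran from 0.18 to 0.31 (Kupffer), 0.36 to 0.48 (chromatin), -0.80 to -0.59 (cytosolic ribosomal), 0.25 to 0.45 (endothelial), -1.22 to -0.92 (erythroid), 0.43 to 0.68 (matrix), -0.74 to -0.36 (growth hormone), -0.44 to -0.36 (mitochondrial ribosomal), -0.57 to -0.44 (oxidative phosphorylation), 0.25 to 0.33 (pericentral) and 0.049 to 0.16 (periportal). Correlations ran from 0.38 to 0.44 (length) and -0.31 to -0.12 (GC). Of 56 single genes followed, 4 that were not set apart turned in sign under some alternative: Hal (-0.16) and Ass1 (0.11) with the GC and length offset, Rhbg (-0.087) with the replicate block, and Pck1 (-0.078) without the genotype covariate. None of the 40 set-apart genes followed did. Among other genes the text names, Dcn, Kmt2a, Nrp1, Eno1 and C6 had the opposite sign after the offset, at -0.02, -0.12, -0.03, 0.09 and -0.02. Counting error limits genes near 3 counts.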
